A study of Homo sapiens with 8 samples.

Results

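A set of 10 proteoglycan core protein genes was listed for description in ZR-75-1 cells with EI24 knockdown, and 9 of these 10 could be read among the 18417 genes tested. The members were taken by symbol: the small leucine-rich proteoglycans BGN, DCN and LUM, the large matrix proteoglycans VCAN and HSPG2, the syndecans SDC1, SDC2 and SDC4, and the glypicans GPC1 and GPC6. Each gene was represented by 1 transcript cluster, a set of array probes for 1 gene. SDC4 is not analysed here, because the annotation of its only cluster also names another gene. ZR-75-1 is a luminal, estrogen receptor-positive human breast cancer line. The groups were ZR-75-1 cells stably expressing shRNA against EI24 (ZR-shEI24, clone 1 and clone 2), cells that carried a GFP-directed shRNA as the control (shGFP), and parental cells that carried no shRNA. Each of the 4 lines was hybridized to 2 Affymetrix arrays, 8 in all. All were grown in RPMI medium with serum and received no chemical. The study design describes the ZR-shEI24 cells as independent clones. The ZR-shEI24 labels carry a pair of numbers, read here as clone number followed by replicate number. The shGFP and parental labels carry a single number, read here as replicate number. The labels do not spell out these readings, and every value of a single clone rests on the reading of the pair. Whether the clones carry the same shRNA is not stated in the sources used here. Whether the paired arrays of each line were separate cultures is not given in the sources used here, and the p-values therefore describe array-to-array spread that may be technical in origin. Values are log2 intensities, on which a difference of 1 is a 2-fold difference.

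Proteoglycans are proteins that carry long sulfated sugar chains, the glycosaminoglycans. Syndecans span the membrane and glypicans are held on it by a lipid anchor, and the heparan sulfate chains of both bind growth factors and matrix proteins at the cell surface. Perlecan, the product of HSPG2, is a heparan sulfate proteoglycan of basement membranes. Versican, biglycan, decorin and lumican lie in the matrix between cells, where versican binds hyaluronan and decorin and lumican bind collagen fibrils. In breast epithelium SDC1 is the main syndecan, while DCN and LUM are made chiefly by stromal fibroblasts.

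In ZR-shEI24 cells the glypican gene GPC6, the syndecan gene SDC2, HSPG2 and VCAN rose compared with shGFP cells, and the biglycan gene BGN fell. GPC6 rose most, by a log2 difference of 3.22 (9.32-fold), and SDC2 by 1.21 (2.31-fold). BGN had a log2 difference of -1.76 (3.39-fold lower). Counted over the 9 measured genes, 4 were higher, 1 was lower and 4 missed the threshold (limma, adjusted p under 0.05). Over all genes the same test called 55.9% in either direction, 26.8% higher and 29.0% lower, so the proteoglycan genes were called about as often as any other genes. Past 2-fold, 2 of the 9 were higher and 1 was lower, against 8.69% of all genes higher and 9.08% lower. Against parental cells SDC2 and BGN did not reach 2-fold, with log2 differences of 0.84 and -0.76. The median log2 difference of the 9 genes was 0.18, and that of all genes was 0.0755. In 6 genes all 4 ZR-shEI24 arrays lay above all 4 control arrays, in 1 gene all lay below, and in DCN and GPC1 the arrays overlapped. Over all genes, 23.8% lay wholly above and 26.9% wholly below.

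EI24, the target of the shRNA, gave 8.64 and 8.43 in clone 1 and 9.25 and 9.19 in clone 2, against 11.97 and 11.91 in shGFP cells and 12.08 and 12.09 in parental cells. The median of the arrays was 7.28 to 7.39. The mean over 10 luminal markers was 8.41 to 8.64 in the ZR-shEI24 arrays, against 11.70 to 11.73 in shGFP and 11.79 to 11.87 in parental arrays, and all 10 fell. The control lines thus carried the markers of their label, while CDH1 and GATA3 fell most in the clones, with log2 differences of -6.11 and -4.81. The mean over 10 fibroblast markers was 6.59 to 6.78 in ZR-shEI24, against 6.40 to 6.42 in shGFP and 6.33 to 6.53 in parental arrays. Of these 10, 3 rose (6 with the replicate number as a block), led by COL5A1 and COL6A3, while COL1A1 and POSTN gave 0.02 and -0.04. Of 7 endothelial markers 4 rose, led by ESAM and KDR, while CDH5, VWF and TEK gave 0.27, 0.22 and 0.11 and did not pass. The endothelial list mean was 7.12 to 7.22 in ZR-shEI24, against 6.15 to 6.24 in shGFP and 6.18 to 6.39 in parental arrays. Of 6 leukocyte markers 3 rose, CD68 by 3.95, CD14 by 0.89 and PTPRC by 0.21. PTPRC lay at percentiles of 1.7 in shGFP cells and 2.2 in the clones, close to background. CD3E, LYZ and SPI1 gave 0.02, -0.04 and 0.30 and did not pass. Beside these marker counts, 26.8% of all genes rose and 29.0% fell against shGFP. The leukocyte list mean was 7.07 to 7.23 in ZR-shEI24, against 6.19 to 6.32 in shGFP and 6.17 to 6.35 in parental arrays. The part of these shifts in the proteoglycan values was not tested. In bulk RNA, a change in the cells present and a change in RNA per cell cannot be told apart.

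**Figure D1:**
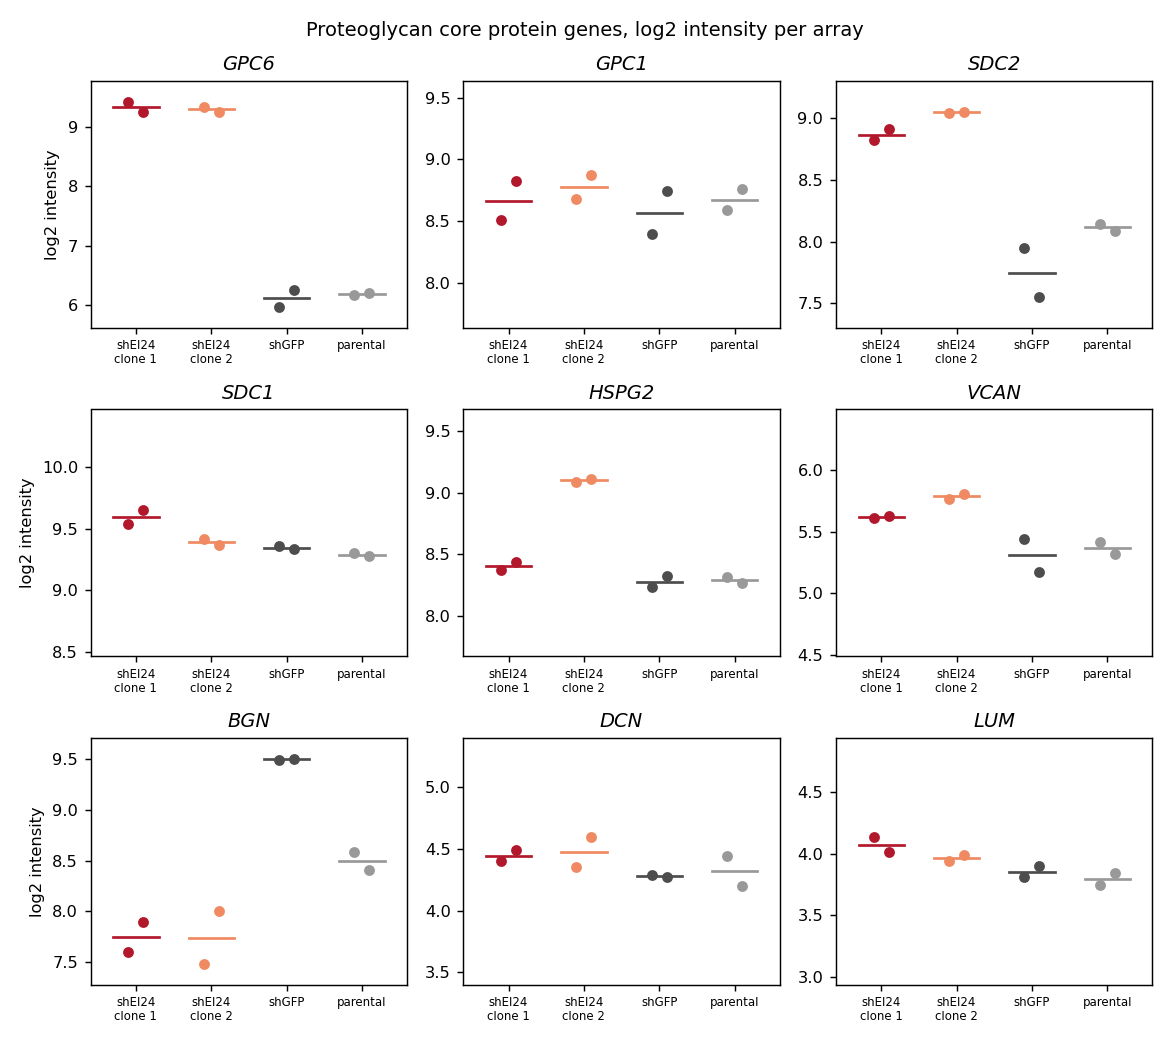
Log2 intensity (vertical axis) of each of the 9 proteoglycan genes by line, from clone 1 and clone 2 of shEI24 to shGFP and parental cells. Each dot is an array and each bar the mean of a line: GPC6 lay at 9.26 to 9.44 in the clones and 5.96 to 6.25 in the controls, BGN was lowest in the clones and highest in shGFP, and HSPG2 was highest in clone 2.

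The promoters of the called genes other than SDC2 are shown because these genes moved in both directions. RefSeq promoter windows on GRCh38.p14 were read for 7 of the 10 listed genes (BGN, VCAN, SDC1, SDC4, GPC1, GPC6 and HSPG2). SDC2, which rose, and DCN and LUM were not among the windows read. Their absence here does not mean that RefSeq lacks a promoter for them. The lines below give the 250 bases before 1 annotated start, 5′ to 3′ on the strand of the gene, for 3 genes that rose (GPC6, HSPG2, VCAN) and for BGN, which fell. They lie at chr13:93226557-93226806 on the plus strand (GPC6), chr1:21937311-21937560 on the minus strand (HSPG2), chr5:83471494-83471743 on the plus strand (VCAN) and chrX:153494730-153494979 on the plus strand (BGN). Capitals mark the GC box GGGCGG and the TATA box TATAAA, read on both strands, with overlapping matches joined.
GPC6: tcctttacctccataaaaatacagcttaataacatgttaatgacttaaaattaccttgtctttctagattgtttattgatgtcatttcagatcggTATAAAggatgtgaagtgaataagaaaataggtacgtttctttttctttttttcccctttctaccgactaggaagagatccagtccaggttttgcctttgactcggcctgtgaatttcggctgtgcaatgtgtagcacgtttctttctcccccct
HSPG2: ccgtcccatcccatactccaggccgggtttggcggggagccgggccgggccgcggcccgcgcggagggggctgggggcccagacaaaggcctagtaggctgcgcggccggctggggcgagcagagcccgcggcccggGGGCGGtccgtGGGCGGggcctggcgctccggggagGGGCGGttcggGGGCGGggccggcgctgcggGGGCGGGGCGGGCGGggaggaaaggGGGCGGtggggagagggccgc
VCAN: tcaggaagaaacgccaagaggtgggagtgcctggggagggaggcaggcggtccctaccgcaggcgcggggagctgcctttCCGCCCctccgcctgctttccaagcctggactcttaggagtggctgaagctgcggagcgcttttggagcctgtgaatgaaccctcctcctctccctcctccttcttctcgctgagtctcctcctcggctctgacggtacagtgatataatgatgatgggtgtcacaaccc
BGN: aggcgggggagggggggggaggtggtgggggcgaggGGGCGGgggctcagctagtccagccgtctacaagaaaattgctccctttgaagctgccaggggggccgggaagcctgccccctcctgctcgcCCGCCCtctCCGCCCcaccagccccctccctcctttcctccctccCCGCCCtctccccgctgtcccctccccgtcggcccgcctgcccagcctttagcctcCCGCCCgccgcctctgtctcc
The windows differed widely in base composition. GPC6 held 6 CpG dinucleotides and 37.6% G and C, HSPG2 33 and 82.8%, VCAN 12 and 60.8%, and BGN 16 and 74.0%, against medians of 11 and 58.0% over all 35116 promoter windows. HSPG2 held 8 GC boxes, of which some overlap, BGN 5 and VCAN 1. GPC6 held 1 TATA box, which began 155 bases before the start. A GC box stood in 42.6% and a TATA box in 10.7% of all windows. The E-box CAGGTG (17.5% of all windows), the AP-1 site TGAGTCA (4.20%) and the κB consensus (9.96%) had no match in these 4 windows, which says only that those letters are not there. Of the genes that were not called against shGFP, SDC1 held the E-box in 1 of its 2 windows and the κB consensus in the other.

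GPC6 encodes glypican 6, a lipid-anchored heparan sulfate proteoglycan of the cell surface. Its log2 intensity was 9.44 and 9.26 in clone 1 and 9.34 and 9.26 in clone 2, against 5.96 and 6.25 in shGFP cells and 6.16 and 6.20 in parental cells. The clones formed a tight band far above both controls. By limma, GPC6 rose by 3.22 against shGFP (adjusted p = 1.8e-08, standard error 0.10) and by 3.15 against parental cells (adjusted p = 2.4e-08). Clone 1 and clone 2 differed by 0.05, with a 95% interval of -0.22 to 0.31. In shGFP cells GPC6 ranked at percentile 20.1 of the genes, among the dim clusters, where intensities hold much background, so the fold may understate the difference.

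GPC1 encodes the related glypican 1. Its values were 8.51 and 8.82 in clone 1 and 8.68 and 8.88 in clone 2, against 8.40 and 8.74 in shGFP cells and 8.59 and 8.76 in parental cells. All 4 lines overlapped. The log2 difference against shGFP was 0.15 with a 95% interval of -0.14 to 0.45 (adjusted p = 0.34 from limma). In every line the array labelled 2 was the higher one for GPC1, and with the replicate number as a block the difference of clone 2 against shGFP, 0.21, passed (adjusted p = 0.041 from limma, against 0.27 without the block).

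SDC2, a syndecan common in mesenchymal cells, gave 8.83 and 8.91 in clone 1 and 9.05 and 9.05 in clone 2, against 7.95 and 7.55 in shGFP cells and 8.15 and 8.09 in parental cells. Every ZR-shEI24 array lay above every control array. SDC2 rose by 1.21 against shGFP (limma, adjusted p = 1.4e-05, standard error 0.11) and by 0.84 against parental cells (adjusted p = 0.00015 from limma). The shGFP line itself gave -0.37 against parental cells, which did not pass (adjusted p = 0.11 from limma).

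SDC1, the epithelial syndecan, gave 9.54 and 9.66 in clone 1 and 9.41 and 9.37 in clone 2, against 9.36 and 9.33 in shGFP cells and 9.30 and 9.28 in parental cells. The clones lay above the controls by little, although CDH1 and GATA3, also epithelial, fell in the same arrays. The log2 difference against shGFP was 0.15 with a 95% interval of -0.02 to 0.32 (adjusted p = 0.12 from limma). Against parental cells it was 0.20 (adjusted p = 0.043 from limma), and this call was lost in 7 of 8 fits that each left out 1 array, at adjusted p of 0.066 to 0.15. SDC1 rose in clone 1 alone by 0.25 (adjusted p = 0.038 from limma), a call that was likewise lost in 7 of these 8 fits (0.051 to 0.17).

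HSPG2, the perlecan gene, separated the clones. It gave 8.38 and 8.44 in clone 1 and 9.09 and 9.11 in clone 2, against 8.24 and 8.32 in shGFP cells and 8.32 and 8.27 in parental cells. Clone 1 lay just above the controls and clone 2 well above them. The mean of the clones rose by 0.48 against shGFP (limma, adjusted p = 0.00045, standard error 0.07). Clone 2 alone rose by 0.82 (adjusted p = 3.8e-05 from limma), while clone 1 alone gave 0.13 with a 95% interval of -0.06 to 0.32 (adjusted p = 0.24 from limma). The difference of clone 1 minus clone 2 was -0.69 (adjusted p = 0.0012 from limma). For EI24 itself, clone 1 minus clone 2 gave a log2 difference of -0.68. With each line as 1 replicate against pooled controls, HSPG2 did not pass (adjusted p = 0.20), nor with the methods' t-test (0.28).

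VCAN, the versican gene, gave 5.61 and 5.62 in clone 1 and 5.76 and 5.81 in clone 2, against 5.44 and 5.17 in shGFP cells and 5.41 and 5.31 in parental cells. The groups did not overlap, although the gap between the lowest clone array and the highest control array was smaller than the spread of the shGFP arrays. VCAN rose by 0.39 against shGFP (limma, adjusted p = 0.0053, standard error 0.09) and by 0.34 against parental cells (adjusted p = 0.012 from limma). Its percentile among all genes was 11.5 and 13.3 in the clones and 9.7 in shGFP cells, close to background. The call against parental cells was lost without parental replicate 2 (0.29, adjusted p = 0.083), and that in clone 1 alone without either clone 1 array or shGFP replicate 2 (adjusted p of 0.082 to 0.29). The call against shGFP was lost without shGFP replicate 2 (0.26, adjusted p = 0.090), with each line as 1 replicate (adjusted p = 0.063) and with the methods' t-test (adjusted p = 0.059).

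**Figure D2:**
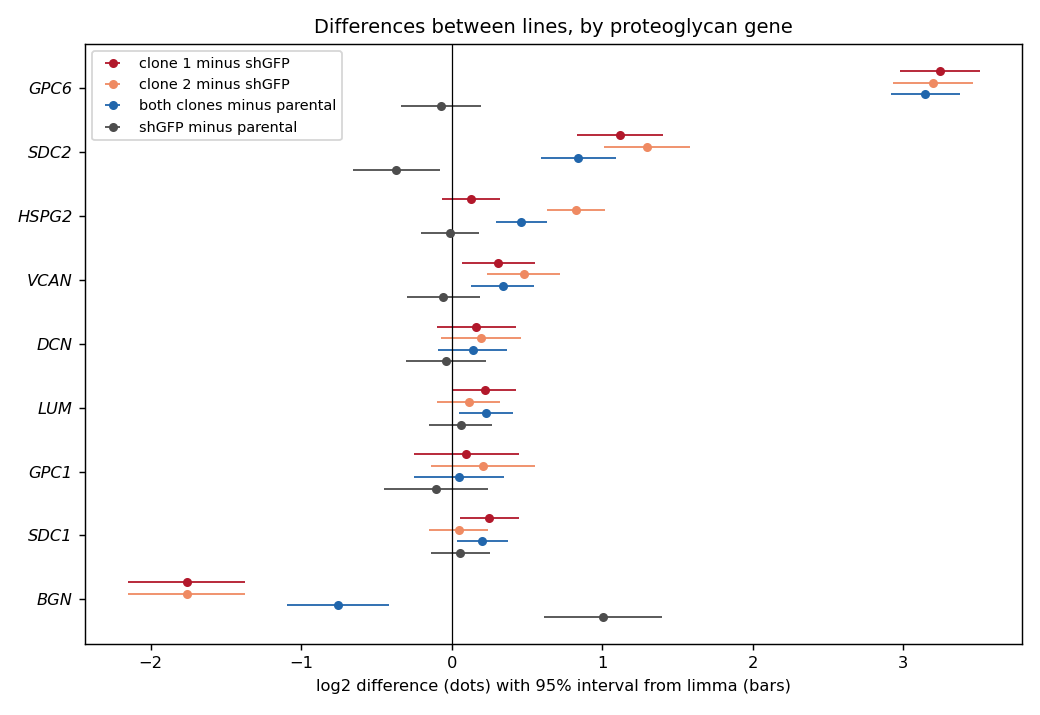
Log2 difference (horizontal axis) of clone 1 and of clone 2 against shGFP, of both clones against parental cells, and of shGFP against parental cells, for each proteoglycan gene. Dots are estimates and bars 95% intervals from limma: GPC6 lay near 3 in each clone, HSPG2 differed between clone 1 at 0.13 and clone 2 at 0.82, and for BGN shGFP stood above parental cells by 1.01.

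BGN, which encodes the small matrix proteoglycan biglycan, was the 1 member that fell. Its values were 7.59 and 7.89 in clone 1 and 7.48 and 8.00 in clone 2, against 9.49 and 9.51 in shGFP cells and 8.59 and 8.41 in parental cells. The 2 controls stood well apart, with parental cells between the clones and shGFP. BGN fell by 1.76 against shGFP (limma, adjusted p = 8.8e-06, standard error 0.15) and by 0.76 against parental cells (limma, adjusted p = 0.0020, standard error 0.15). The difference between the clones was 0.001, with a 95% interval of -0.39 to 0.39. In shGFP cells BGN was higher than in parental cells by 1.01 (adjusted p = 0.0084 from limma), and it was the gene of the 9 called between these 2 lines, against 10.7% of all genes (3.21% higher and 7.44% lower). That call was lost without shGFP replicate 1, shGFP replicate 2 or parental replicate 2 (adjusted p of 0.061, 0.069 and 0.062), and the fall of BGN with each line as 1 replicate did not pass (-1.26, adjusted p = 0.050).

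DCN and LUM, the genes of the collagen-binding proteoglycans decorin and lumican, lay in the dimmest part of the arrays in every line. DCN gave 4.40 and 4.49 in clone 1 and 4.36 and 4.60 in clone 2, against 4.29 and 4.27 in shGFP cells and 4.44 and 4.20 in parental cells. LUM gave 4.13 and 4.02 in clone 1 and 3.94 and 3.99 in clone 2, against 3.81 and 3.90 in shGFP cells and 3.75 and 3.84 in parental cells. At percentiles of 2.0 to 2.6 for DCN and 0.4 to 1.0 for LUM, these values hold mostly background. The log2 difference against shGFP was 0.18 for DCN (adjusted p = 0.16 from limma) and 0.17 for LUM (adjusted p = 0.11 from limma). Against parental cells LUM passed at 0.23 (adjusted p = 0.037 from limma), and in clone 1 alone it gave 0.22 (adjusted p = 0.077 from limma), which passed with the replicate number as a block (adjusted p = 0.046) and after a second quantile normalization (0.27, adjusted p = 0.045). The call against parental cells was lost in 7 of 8 fits that each left out 1 array, at adjusted p of 0.052 to 0.23.

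Compared with parental cells, 6 of the 9 genes rose and 1 fell, where 55.9% of all genes were called, 25.1% higher and 30.8% lower. Each clone alone against shGFP gave 4 higher and 1 lower, where 49.6% of all genes were called for clone 1 (23.0% higher and 26.6% lower) and 53.0% for clone 2 (25.2% higher and 27.8% lower). The 4 that rose were GPC6, SDC2, VCAN and SDC1 in clone 1 and GPC6, SDC2, VCAN and HSPG2 in clone 2. Between the clones HSPG2 was called, against 15.2% of all genes (9.29% higher and 5.88% lower in clone 1). These comparisons share arrays and are not independent of each other.

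Another 29 proteoglycan core protein genes were measured, and against shGFP 10 were higher, 2 lower and 17 not called, with a median log2 difference of 0.20. The share called was 41.4%, below the 55.9% of all genes. SRGN, which encodes serglycin, the proteoglycan of secretory granules, gave 11.59 and 11.56 in clone 1 and 11.63 and 11.64 in clone 2, against 6.002 and 6.12 in shGFP cells and 6.30 and 6.22 in parental cells. It rose by 5.54 (limma, adjusted p = 5.4e-10, standard error 0.07), more than any of the 9 listed genes. ESM1, which encodes the secreted endocan, rose by 4.65, SPOCK1, the testican gene, by 3.93, and TGFBR3, the betaglycan coreceptor gene, by 2.28. For TGFBR3 shGFP lay below parental cells by a log2 difference of -1.05, and the rise against parental cells was 1.23. The glypican genes GPC4 and GPC3 moved against GPC6, with log2 differences of -1.37 and -0.80. ESM1 is known from endothelial cells. Of the 7 endothelial markers 4 rose and 3 did not pass. Their list mean was 7.12 to 7.22 in ZR-shEI24 and 6.15 to 6.24 in shGFP arrays, and its part in the rise of ESM1 was not tested.

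Of 13 genes of the linker sugars and of precursor supply, 1 rose, 2 fell and 10 did not pass (median -0.06), so that 23.1% were called against 55.9% of all genes. After a second quantile normalization 4 rose. PAPSS2, which makes the sulfate donor, gave 10.86 and 10.76 in clone 1 and 10.04 and 9.98 in clone 2, against 8.20 and 8.06 in shGFP cells and 9.95 and 9.84 in parental cells. It rose by 2.28 against shGFP but by only 0.51 against parental cells, since shGFP lay below parental cells by a log2 difference of -1.76, and clone 2 stood close to parental cells. With each line as 1 replicate against pooled controls PAPSS2 did not pass (1.39, adjusted p = 0.16 from limma). FAM20B, the xylose kinase gene, and SLC35B2, a transporter of the sulfate donor, had log2 differences of -0.64 and -0.43. With parental cells as the control 2 rose and 4 fell.

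Of 20 measured genes of heparan sulfate synthesis, 7 rose, 3 fell and 10 did not pass (median 0.24), which is 50% called against 55.9% of all genes. With the replicate number as a block 12 rose, and the genes called higher over the whole table numbered 6307 with the block against 4941 without it. EXT1, a polymerase of the heparan sulfate chain, gave 12.50 and 12.32 in clone 1 and 12.66 and 12.56 in clone 2, against 8.30 and 8.14 in shGFP cells and 8.19 and 8.36 in parental cells. It rose by 4.29 (limma, adjusted p = 2.9e-09, standard error 0.09). HS3ST3B1, a 3-O-sulfotransferase gene, rose by 2.60 and EXTL2, of the exostosin-like family, by 1.17. Against parental cells the rise of HS3ST3B1 was 1.94. The 6-O-sulfotransferase genes HS6ST2 and HS6ST1 moved the other way, with log2 differences of -1.38 and -1.10, as did NDST1, an N-deacetylase and N-sulfotransferase gene, with -0.49. The third 6-O-sulfotransferase gene, HS6ST3, which the naming rule did not choose, rose by 0.91.

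Of 16 genes of chondroitin and dermatan sulfate synthesis, 10 rose and 6 did not pass (median 0.46), which is 62.5% called against 55.9% of all genes, of which 26.8% rose. With the methods' t-test 6 rose. The 4-O-sulfotransferase gene CHST11 gave 12.01 and 11.92 in clone 1 and 11.19 and 11.17 in clone 2, against 8.22 and 8.38 in shGFP cells and 9.01 and 8.93 in parental cells. It rose by 3.27 (limma, adjusted p = 4.9e-09, standard error 0.08). The dermatan sulfate epimerase genes DSE and DSEL rose by 3.20 and 2.27, and CSGALNACT2, which starts and extends chondroitin chains, by 1.68. With parental cells as the control 8 rose and 1 fell.

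The endosulfatases, which remove 6-O-sulfate from heparan sulfate outside the cell, fell. SULF2 gave 6.10 and 6.66 in clone 1 and 6.94 and 6.69 in clone 2, against 11.45 and 11.35 in shGFP cells and 11.82 and 11.82 in parental cells. It fell by 4.80 (limma, adjusted p = 1.7e-08, standard error 0.15). SULF1 gave 6.10 and 6.41 in clone 1 and 6.39 and 6.34 in clone 2, against 8.44 and 8.41 in shGFP cells and 6.67 and 6.66 in parental cells. Here shGFP stood apart from the other 3 lines. SULF1 fell by 2.11 against shGFP but by only 0.35 against parental cells (adjusted p = 0.012 from limma), and shGFP lay above parental cells by 1.76 (adjusted p = 9.0e-05 from limma). Among all 14 measured genes of editing, cleavage and shedding, 8 rose, 2 fell and 4 did not pass (median 0.38), which is 71.4% called against 55.9% of all genes. MMP14, a membrane protease that can shed syndecans, rose by 4.37, and ADAMTS1 and ADAMTS9, proteases that cleave versican, by 3.97 and 3.47. Of 11 lysosomal enzymes of glycosaminoglycan breakdown 7 fell, 2 rose and 2 did not pass (median -0.37), where 29.0% of all genes fell. With each line as 1 replicate 3 fell, with the methods' t-test 4, and past 2-fold 1. ARSG and HEXA had log2 differences of -2.35 and -0.72, while HGSNAT and IDS rose by 1.03 and 0.78. Against parental cells ARSG had a log2 difference of -1.73.

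Hyaluronan, a glycosaminoglycan without a core protein, is the partner of versican in the matrix. Of 14 measured genes of its synthesis, binding and breakdown, 7 rose, 1 fell and 6 did not pass (median 0.25), and the 57.1% called was near the 55.9% of all genes. The receptor gene CD44 rose by 4.14 against shGFP and by 3.23 against parental cells. HAS2, a hyaluronan synthase gene, gave 10.19 and 9.94 in clone 1 and 9.02 and 8.61 in clone 2, against 5.63 and 5.67 in shGFP cells and 5.72 and 6.03 in parental cells, and rose by 3.79. TNFAIP6, which encodes a hyaluronan-binding protein, rose by 1.72, of which clone 1 alone gave 3.003 and clone 2 alone 0.44. HMMR, a hyaluronan receptor gene that is also expressed in mitosis, had a log2 difference of -2.64.

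Of 13 measured growth factor genes whose products bind heparan sulfate, 7 rose, 3 fell and 3 did not pass (median 0.54), which is 76.9% called against 55.9% of all genes. FGF5 rose by 5.95, HBEGF, an EGF receptor ligand, by 4.81 and PDGFC by 3.66. The chemokine gene CXCL12, and MDK and PDGFB, which encode midkine and a platelet-derived growth factor chain, had log2 differences of -3.57, -1.90 and -0.65.

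**Figure D3:**
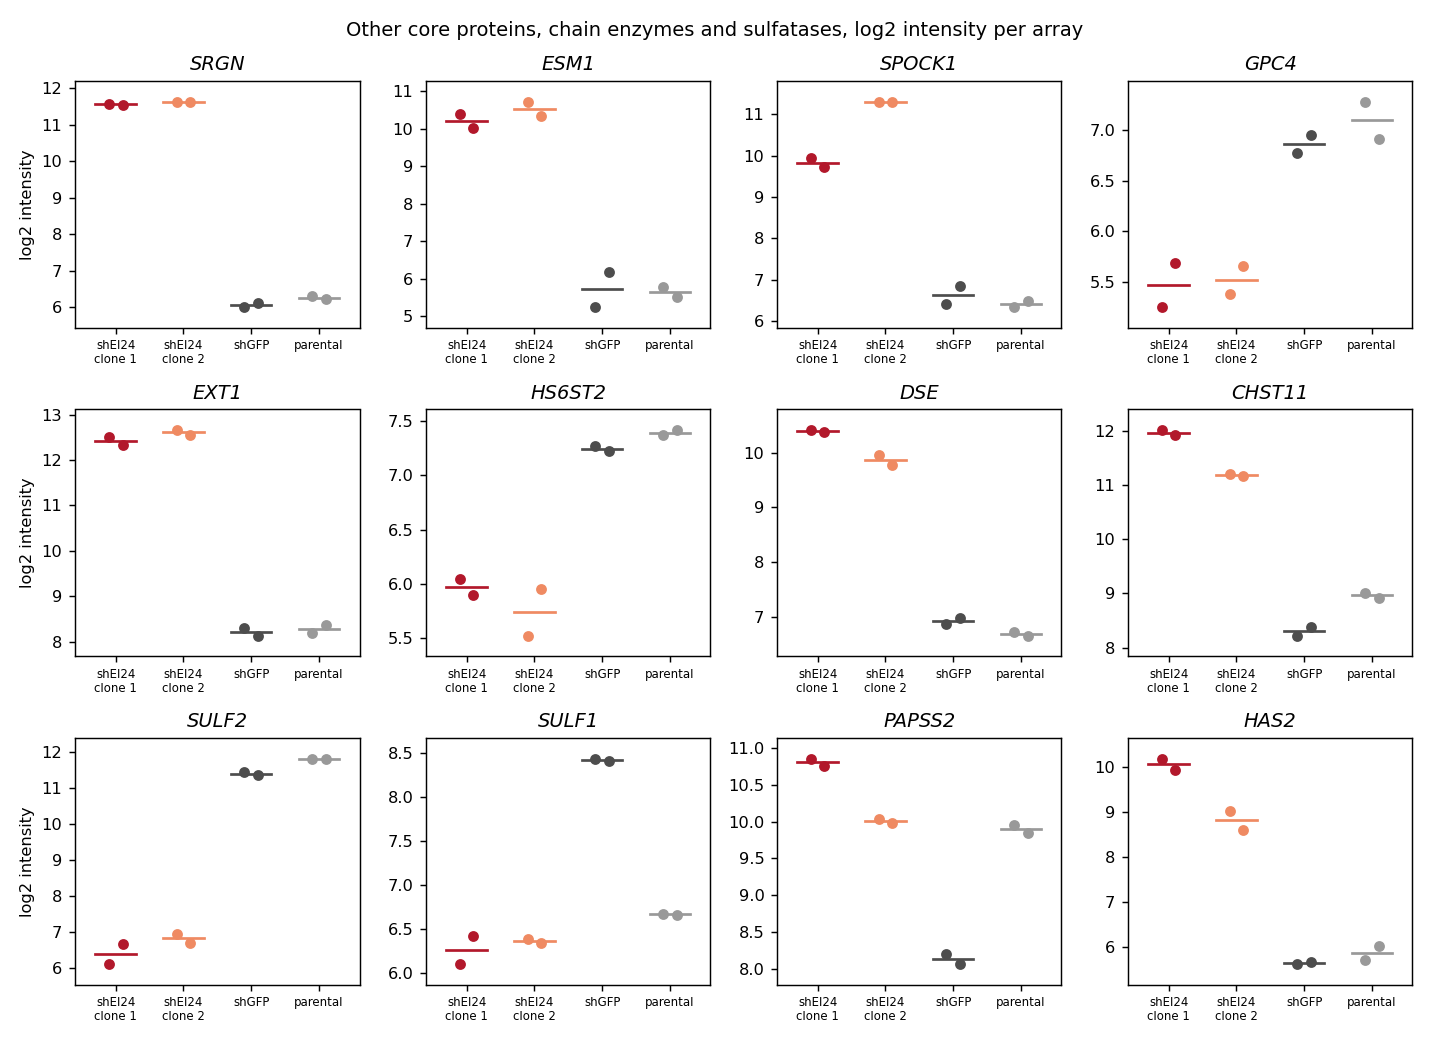
Log2 intensity (vertical axis) of 12 genes of other core proteins, chain enzymes, sulfatases and hyaluronan synthesis in clone 1 and clone 2 of shEI24, then in shGFP and parental cells. Each dot is an array and each bar the mean of a line: SRGN and EXT1 stood far above both controls, while SULF1 at 8.44 and 8.41 was high in shGFP alone and PAPSS2 was low in shGFP alone.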

How the data were processed

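RNA of 8 samples of ZR-75-1 lines was hybridized to Affymetrix arrays. The authors deposited log2 intensities, with 1 value for each transcript cluster on each array. GCOS and RMA are named in the processing notes of the submitters, with no version given in the sources used here. This procedure removes background, gives all arrays nearly the same distribution and summarizes probes, so a change in total RNA per cell is not seen and dim clusters compress differences. The methods name a human exon array, while the cluster identifiers were found in the annotation of a related gene-level array.

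Of 33297 clusters, 19460 had 1 gene symbol, 1754 several and 12083 none. Clusters with several or none were left out, and the brightest cluster per gene was kept (1043 set aside). No member had a second cluster. Differences were computed in R 4.3.3 by the lmFit and eBayes functions of limma 3.58.1. The model held 4 line means and left 4 residual degrees of freedom. Benjamini-Hochberg adjustment ran over all 18417 genes, with a threshold of 0.05. The procedure was tested on simulated data. Replicate numbers in the labels were shared: the difference between replicate 2 and replicate 1 correlated across genes between every pair of lines (r of 0.248 to 0.587), so a fit with the replicate block was run beside the unblocked one. Precision is limited by having 2 arrays per line.

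The members and lists were chosen with earlier results of these data known. Named beside the members and EI24 were up to 4 called genes per pathway list with the largest difference, up to 2 that moved against their list, and 2 per marker list. A few genes named outside this rule were chosen after their values were seen. Alternatives were other controls, the replicate block, lines as replicates, another variance model, rescaling, filtering, cluster choice, a 2-fold threshold, the methods' t-test and leaving out each array.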

Additional observations from a re-analysis of the deposited data

Results flagged for a closer look

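The clones differed from each other, in the test of clone 1 minus clone 2 itself (limma, adjusted p under 0.05), in 17 of the 56 genes checked, against 15.2% of all genes. Most of these 56 genes had been chosen for large differences between the clones and shGFP. Among the proteoglycans this was HSPG2, with a log2 difference of -0.69. EI24 gave -0.68 and the testican gene SPOCK1 gave -1.47, both lower in clone 1. Higher in clone 1 were the chain enzyme genes DSEL (1.18), PAPSS2 (0.80), CHST11 (0.78), HS3ST3B1 (0.60), NDST1 (0.55) and DSE (0.54). So were the protease genes ADAMTS9 (1.35) and MMP14 (0.55) and the hyaluronan genes TNFAIP6 (2.56), HAS2 (1.25) and HMMR (0.91). PDGFC (0.75), HBEGF (0.43) and the collagen gene COL6A3 (1.11) were higher in clone 1 too. Of 56 genes checked for 1 array apart from the other 3 ZR-shEI24 arrays, CDH1 was found, where the gap of clone 2 replicate 2 to its neighbour was 0.858 of the range. For independent arrays of a single population, chance gives about 1 such gene in 20. These arrays come from 2 clones, so that rate may not hold here.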

How the results depend on the processing

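Against shGFP, 4 proteoglycan genes rose and 1 fell. The calls of GPC6 and SDC2 held under every alternative run. With each line as 1 replicate against pooled controls 2 rose and 0 fell by limma. The fall of BGN there passed only at an unadjusted p under 0.05. With the methods' t-test 2 rose, and at a 2-fold threshold 2 rose. Over all genes these 3 alternatives gave 2743 higher and 3423 lower, 3203 higher, and 1600 higher and 1672 lower, against 4941 and 5348. Without 1 array at a time, 3 to 4 rose against shGFP, 3 to 5 against parental cells (3 without parental replicate 2, against 6 with all arrays), 2 to 3 in clone 1 alone (2 without clone 1 replicate 2 or shGFP replicate 2) and 0 to 1 in shGFP against parental cells. The direction turned only for differences that did not pass. GPC1 ranged from -0.0181 to 0.33 against shGFP, from -0.0377 to 0.13 against parental cells, from -0.0744 to 0.27 for clone 1 against shGFP, from -0.27 to 0.0456 for clone 1 minus clone 2 and from -0.28 to 0.0663 for shGFP minus parental. For clone 1 minus clone 2, BGN ranged from -0.26 to 0.26 and gave -0.0078 after a second quantile normalization, DCN from -0.15 to 0.0914 and GPC6 from -0.0409 to 0.13. For shGFP minus parental, DCN ranged from -0.16 to 0.0791, VCAN from -0.19 to 0.0788, GPC6 from -0.22 to 0.0747 and HSPG2 from -0.0553 to 0.0303. SDC1 passed against shGFP after a second quantile normalization (0.28, adjusted p = 0.013). With the replicate block 4 rose and 1 fell. Of the 9 genes it changed only the calls of GPC1 and LUM given above. In the lists it gave 12 higher of the other core proteins, 11 higher and 1 lower of chondroitin sulfate synthesis, 3 lower of the linker, 9 higher of turnover and 8 higher of hyaluronan. Of the endothelial markers it gave 6 higher and of the leukocyte markers 4. Over all genes the replicate block gave 6307 higher and 5743 lower, against 4941 and 5348 without it. With each line as 1 replicate 5 genes of turnover rose, and PAPSS2, the linker gene that rose, lost its call. With the methods' t-test 4 genes of heparan sulfate synthesis, 5 of turnover and 4 of hyaluronan rose. The cause of these changes was not tested. Dim signal limits DCN, LUM and VCAN, which were not among the genes tested once the dimmest 0.25 of genes was left out. With the same filter 7 of the other core proteins rose and 0 fell, against 10 and 2 without it.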

Other observations

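Neighbours of the proteoglycan genes in the gene order of GRCh38.p14 were looked at after their values had been seen. Only neighbours that were also in the gene lists used here are given. GPC5, which precedes GPC6 on chromosome 13, gave a log2 difference of 0.11 against shGFP, where GPC6 rose by 3.22. HAPLN1, which follows VCAN on chromosome 5 and encodes a link protein of hyaluronan, gave -0.07 against shGFP, but against parental cells it fell by 1.20 (limma, adjusted p = 0.00011). Its mean was 4.68 in the clones and 4.75 in shGFP cells, against 5.88 in parental cells. At percentiles of 4.7 in shGFP cells and 3.5 in the clones, HAPLN1 lay close to background in these lines. KERA, LUM and DCN follow each other on chromosome 12 and gave 0.13, 0.17 and 0.18. Against parental cells KERA passed at 0.25 (limma, adjusted p = 0.038), at percentiles of 4.3 in shGFP cells and 4.5 in the clones, close to background. Of these neighbours, GPC5, HAPLN1, KERA, LUM and DCN did not pass against shGFP.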
